A study of Arabidopsis thaliana with 4 samples.

Results

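The 8 genes described here encode the repressor-type ethylene response factors (ERFs) of group VIII in Arabidopsis thaliana, ERF3 (AT1G50640), ERF4 (AT3G15210), ERF7 (AT3G20310), ERF8 (AT1G53170), ERF9 (AT5G44210), ERF10 (AT1G03800), ERF11 (AT1G28370) and ERF12 (AT1G28360). The rule took them by family membership, through their locus codes, and used no measured value, but the family was picked with earlier results of these data known. All 8 were found among the 30361 loci of the array, and each was matched to the same symbol in a RefSeq gene table.

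ERF proteins bind DNA through a conserved AP2/ERF domain, classically at the GCC box of ethylene- and pathogen-responsive promoters. Members of this subgroup carry a short EAR motif, through which they recruit corepressors of the TOPLESS family and histone deacetylase complexes that include SIN3-like proteins. They act on the same kind of promoter as the activator-type ERFs of group IX, and several of them are known from responses to ethylene, jasmonate, abscisate, wounding and pathogens.

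Wild-type Columbia-0 plants were closed in a 340 cm3 box with (E)-2-hexenal, a reactive 6-carbon aldehyde that wounded leaves give off, or with its solvent acetonitrile alone. Hexenal was given at 10 µM for 30 min, as 3 µL of a 1 M solution in acetonitrile on paper, and was measured on 3 arrays whose samples the labels call biological replicates. Acetonitrile for 30 min was measured on 1 array. All plants are labelled wild type, and RNA was pooled from 6 plants or more per sample. The sources used here do not state plant age or which parts were taken.

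The arrays had medians of 936 to 982 intensity units, and with 1 control array the spread between control samples is unknown. In bulk plant RNA, fewer cells of a type and less RNA per cell cannot be told apart. The 4 leaf markers (RBCS1A, LHCB2.1, CA1 and LHCA1) summed to 175805 units in the control and 162228 to 170326 with hexenal. The 4 root markers (EXPA7, COBL9, CASP1 and LRX1) summed to 1589 units in the control and 703 to 1383 with hexenal, below the control on all 3 arrays. The 5 flower markers (AP1, AP3, PI, AG and SEP3) summed to 364 units in the control, to 753 on hexenal array 1 and to 335 and 343 on arrays 2 and 3. None of these 13 markers was listed at 0, the dimmest in the control being SEP3 at 52.0 units. What part root or flower RNA has in the values below was not tested.

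After 30 min of hexenal, 4 of the 8 genes were at least 2-fold above the control, a size that 4.27% of all loci reached. ERF11, ERF7, ERF8 and ERF4 stood 3.20-, 3.16-, 2.55- and 2.16-fold above the control, whereas ERF3, ERF9, ERF10 and ERF12 lay within 1.44-fold of it. None of the 8 passed the test over all loci. That test was limma's moderated test, in which a call needed a Benjamini-Hochberg adjusted p below 0.05 together with a change of 2-fold or more. By the same rule 273 of 30361 loci (0.899%) were called, 263 higher (0.866%) and 10 lower (0.0329%), and without hexenal replicate 2 the count over all loci was 0. At an unadjusted p under 0.05 with at least a 2-fold higher level, 4 of the 8 genes passed, against 3.67% of all loci. No gene of the family was 2-fold lower, and with 2.95% of all loci at that size a count of 0 is near the background.

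With limma's variance prior fitted to intensity and made robust (eBayes with trend and robust), 3 of the 8 genes were called, ERF11, ERF4 and ERF8, where that fit called 2.07% of all loci. Calls for these 3 genes therefore depend on how the variance prior is set, which does not enter the fold changes.

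**Figure D1:**
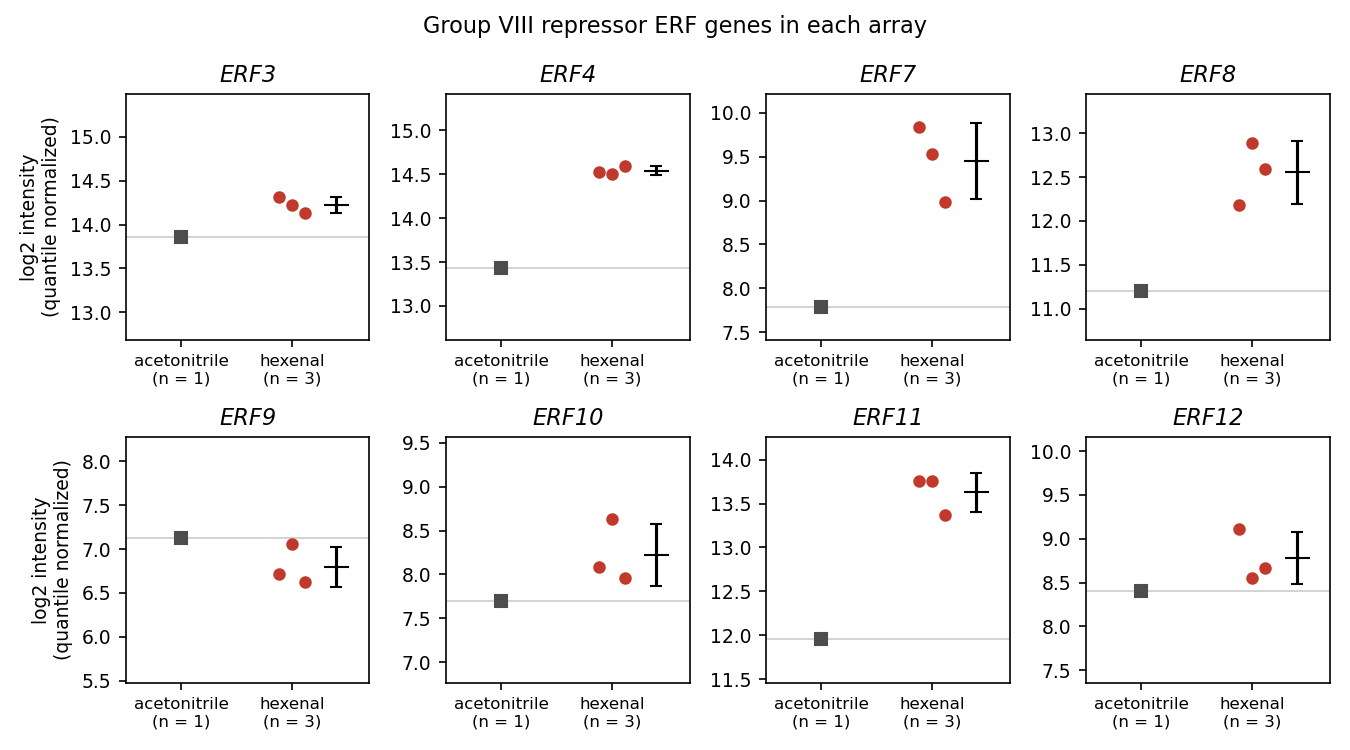
Quantile-normalized log2 intensity of each of the 8 genes on the acetonitrile array (grey square and line) and on the 3 hexenal arrays (red points, in replicate order), with the hexenal mean and SD as a bar. Each panel spans the same number of log2 units around its own gene. For ERF4, ERF7, ERF8 and ERF11 the nearest hexenal array lies 0.98 to 1.42 above the control, and for ERF9 all 3 lie below it.

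ERF11 represses ethylene synthesis genes of the ACS family and is known from the growth response to gibberellin. It had the highest fold change of the 8. Its deposited intensity was 3906 units in the control and 13898, 14100 and 10532 on hexenal arrays 1, 2 and 3. The 3 hexenal values lay close together and at more than 2-fold the control in every case. On the normalized log2 scale the level was 11.95 in the control and 13.63 ± 0.22 (SD, n = 3) with hexenal. The log2 change was 1.68 ± 0.28 (SE), with a 95% interval of 0.98 to 2.38 and an adjusted p of 0.0946 by limma. Only 1.64% of all loci had a higher change. Its adjusted p was 0.00251 with trend and robust and 0.0219 without the dimmest 50% of loci, a filter that leaves 15181 loci in the test, of which 3.16% were called.

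ERF4 binds the GCC box and dampens jasmonate- and ethylene-responsive defence genes, and its transcript is known to be made in a second form, by alternative polyadenylation, that lacks the EAR motif. Its intensity was 10949 units in the control and 23639, 23249 and 24736 on the hexenal arrays. The hexenal arrays were nearly equal, with an SD of 0.05 on the log2 scale, the smallest of the 8 genes, against a median of 0.24 over all loci. The log2 change was 1.11 ± 0.23 (SE; 95% interval 0.53 to 1.69; adjusted p = 0.176 by limma). ERF4 lies among the brightest loci, brighter in the control than 94.2% of them, where differences on an array can be compressed. Its adjusted p with trend and robust was 0.00948. One intensity stands for the locus, so the 2 transcript forms could not be separated.

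ERF8, a relative of ERF4 that is known with it from leaf senescence, was measured at 2317 units in the control. On the hexenal arrays it was at 4678, 7627 and 6190. Every hexenal array lay above the control, but the highest and the lowest of them differed by 0.71 on the log2 scale. The log2 change was 1.35 ± 0.34 (SE; 95% interval 0.50 to 2.20; adjusted p = 0.274 by limma, and 0.0431 with trend and robust).

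ERF7, known as a repressor in abscisate signalling of guard cells that works with a SIN3-like protein and a histone deacetylase, was dim in the control at 234 units. It was at 941, 738 and 503 units on hexenal arrays 1, 2 and 3. Its range over the hexenal arrays, 0.86 on the log2 scale, was the widest of the 8 genes, and the lowest hexenal array was still 1.19 above the control. The log2 change was 1.66 ± 0.38 (SE; 95% interval 0.70 to 2.62; adjusted p = 0.223 by limma). In the control 27.6% of all loci were dimmer, so any background in the values bears on its fold change. With 16 units added before the log it was 1.59, and without hexenal replicate 1, on which ERF7 was highest, it was 1.42.

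ERF3, the first of the family described as a repressor together with ERF4, was bright. Its intensity was 14605 units in the control and 20412, 19272 and 17959 with hexenal. All 3 hexenal arrays lay above the control, by 0.27 to 0.45 on the log2 scale. The log2 change was 0.36 ± 0.24 (SE; adjusted p = 0.696 by limma), with a 95% interval of -0.24 to 0.96 that stops short of a 2-fold change in either direction. Like ERF4, ERF3 was near the top of the intensity scale, with 96.9% of loci dimmer in the control.

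ERF12, which acts with TOPLESS in seed dormancy, and ERF10, whose role is less well described, were both dim. ERF12 was at 348 units in the control and 559, 370 and 408 with hexenal, and ERF10 at 221 in the control and 259, 391 and 257 with hexenal. In each of these genes 1 hexenal array was clearly the highest, array 1 for ERF12 and array 2 for ERF10. The log2 changes were 0.38 ± 0.31 (SE; 95% interval -0.40 to 1.16) for ERF12 and 0.53 ± 0.34 (SE; 95% interval -0.32 to 1.37) for ERF10, with adjusted p values of 0.745 and 0.690 by limma. Both intervals include a 2-fold higher level as well as no change.

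ERF9, known as a negative regulator of defence against necrotrophic fungi, was the only one of the 8 below the control. It was at 148 units in the control and 100.2, 130 and 100.8 with hexenal, and hexenal array 2 lay only 0.069 below the control on the normalized log2 scale. The log2 change was -0.33 ± 0.28 (SE; 95% interval -1.03 to 0.38; adjusted p = 0.755 by limma). By its mean over the 4 arrays ERF9 was in the dimmest 25% of loci, with 14.6% of loci dimmer, so a change in its transcript could be hidden by background.

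Counted by direction, 7 of the 8 genes lay above the control on all 3 hexenal arrays and 1 lay below it on all 3. Over all loci 26.1% lay above on all 3 and 32.4% below on all 3. The same control array enters all 3 differences of a gene. The median log2 change of the 8 genes was 0.82, beside -0.03 over all loci, and the medians on hexenal arrays 1, 2 and 3 were 0.85, 1.00 and 0.72. In the order of changes, ERF11 and ERF7 were nearly level, as were ERF12 and ERF3. The widest steps were those from ERF4 (1.11) to ERF10 (0.53) and from ERF3 (0.36) to ERF9 (-0.33), and there too the 95% intervals of the neighbours overlapped. Differences between the genes' changes were not tested.

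**Figure D2:**
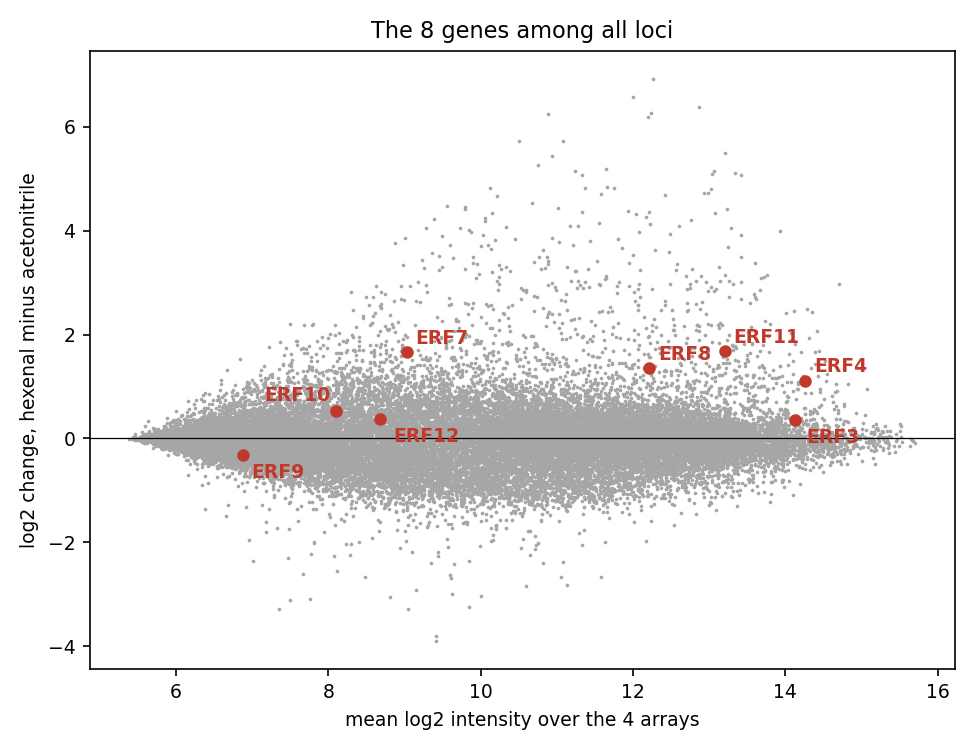
Log2 change (hexenal minus acetonitrile, vertical) against the mean log2 intensity over the 4 arrays (horizontal) for all 30361 loci in grey and the 8 genes in red. ERF4, ERF8 and ERF11 lie above the main band among brighter loci, ERF7 above it among dimmer loci, and the other 4 within it. From 1.64% (ERF11) to 3.47% (ERF4) of all loci had a higher change than these first 4 genes.

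ERF11 and ERF12 are direct neighbours in the annotation among the loci on the array, yet their values with hexenal were far apart. ERF11 was at 1.80, 1.81 and 1.42 above the control on arrays 1, 2 and 3 on the log2 scale, and ERF12 at 0.71, 0.15 and 0.27. On the outer sides of this pair, AT1G28350 was at 0.12 ± 0.28 (SE) and AT1G28375 at 0.86 ± 0.48 (SE), with adjusted p values of 0.933 and 0.675 by limma. Over the 14 loci that flank the 8 genes and are not members, none was called, and their log2 changes ran from -1.01 to 1.00 with a median of 0.09. These flanking loci were chosen after the members' values were seen.

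The likeness of genes was measured as the Euclidean distance between their log2 differences from the control on the 3 hexenal arrays, as a description over 3 arrays that share 1 control. Within the family, ERF3 and ERF12 (0.33) and ERF7 and ERF11 (0.34) were the closest pairs, and ERF7 and ERF9 (3.49) the farthest. Among all loci, the 3 nearest to ERF11 were AT4G30370 (distance 0.056), ABCC2 (0.066) and STN1 (0.11). ABCC2, a vacuolar transporter of glutathione conjugates, had an intensity of 3331 units in the control and 11803, 12433 and 8774 with hexenal, a log2 change of 1.68 ± 0.29 (SE; adjusted p = 0.110 by limma). STN1, a telomere capping protein, was at 624 units in the control and 2344, 2347 and 1692 with hexenal. AT4G30370 was dim, at 140 units in the control and 483, 459 and 362 with hexenal. Neither AT4G30370 (adjusted p = 0.0950 by limma) nor STN1 (0.0961) was called. With trend and robust the adjusted p was 0.00374 for ABCC2 and 0.0291 for STN1, and both were called, as ERF11 was. Without the dimmest 50% of loci it was 0.0265 and 0.0219, and both were called there too, as ERF11 was. That filter used the mean over all arrays, hexenal arrays included. In the control STN1 lay below the array's median of 941 units, so its place in the filtered test rests on its hexenal values. Its call under that filter is therefore not independent of its rise.

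The family's values were then set beside those of activator-type ERFs of group IX, which bind the same promoter element, and of the ZAT and AZF zinc finger proteins, which are repressors with an EAR motif as well. Of 11 activator-type ERF genes 6 were called higher and none lower, and the counts were the same for 11 ZAT and AZF genes, where 0.866% of all loci were called higher. In each list 9 genes lay above the control on all 3 hexenal arrays and 1 below it on all 3. In the second list 3 loci are given by code, because the reference table does not give them the family's name. ERF13, ERF5, ERF1A and ERF6, activators of early stress and defence genes, rose by 5.44 ± 0.40, 5.26 ± 0.33, 4.82 ± 0.47 and 4.35 ± 0.23 (log2 change ± SE). ZAT12, ZAT6, ZAT11 and ZAT10, which belong to the responses to oxidative and abiotic stress, rose by 4.21 ± 0.26, 4.05 ± 0.23, 3.82 ± 0.32 and 3.37 ± 0.24. Their adjusted p values ran from 0.00758 to 0.0231 by limma.

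ERF6 had 887 units in the control and 19206, 17977 and 18062 with hexenal, and ZAT10 had 2120 units in the control and 21578, 23600 and 21520 with hexenal. The median log2 change was 3.04 for the activator-type ERFs and 2.46 for the ZAT and AZF genes, beside 0.82 for the 8 repressor-type ERFs. The lowest log2 changes in the compared lists were -0.46 for ERF14 and -0.97 for AT2G28200. AT2G28200 was at 2997 units in the control and 1199, 1815 and 1760 with hexenal, below the control on every array, and was not called (adjusted p = 0.491 by limma). These 2 genes were singled out after their values were seen. A difference between the families was not tested, and without hexenal replicate 2 none of the genes of either compared list was called.

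**Figure D3:**
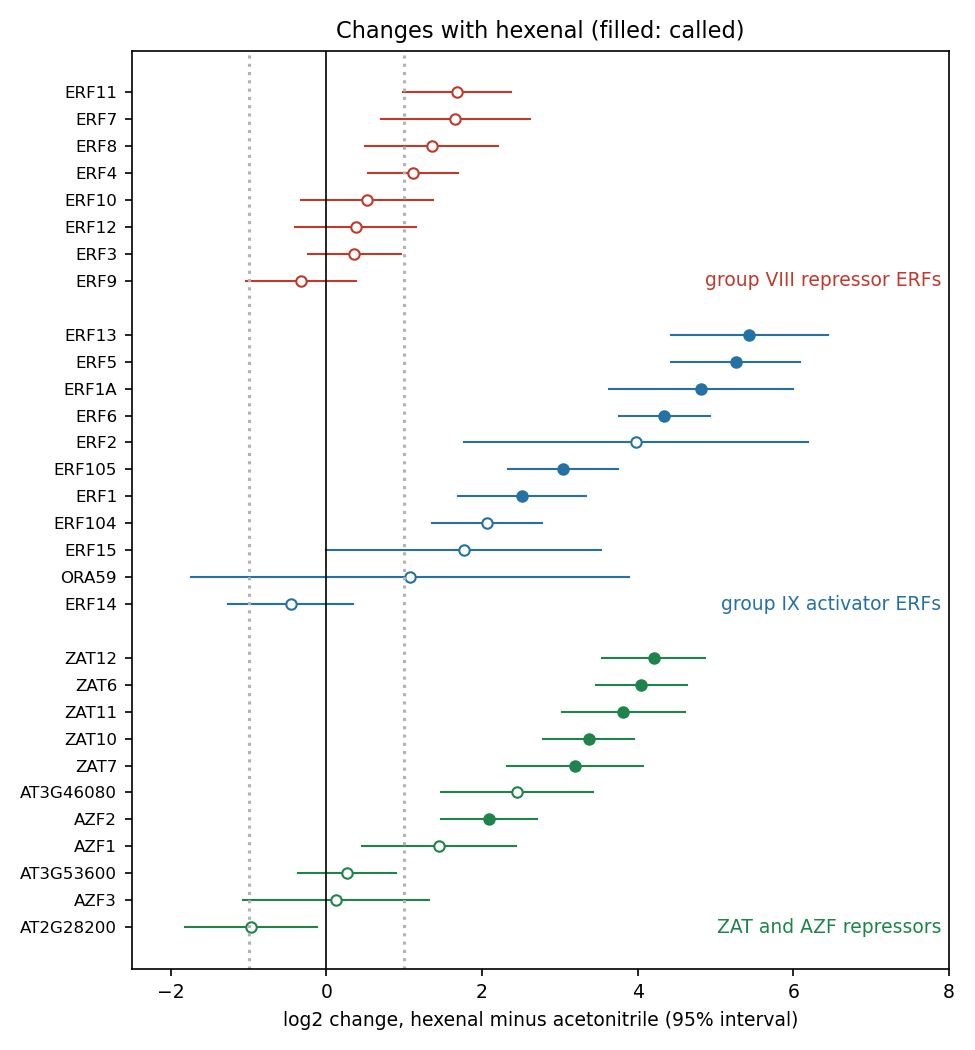
Log2 change with its 95% interval for the 8 repressor-type ERFs (red), 11 activator-type ERFs (blue) and 11 ZAT and AZF genes (green), each ordered by size. Filled points were called and dotted lines mark 2-fold. The highest repressor-type ERF is ERF11 at 1.68. No locus of the array was called with a change smaller than 1.80. In each other list, genes that were not called lie both above and below ERF11.

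The genes around the 8 factors were described from lists of known partners and targets. In the other branch of group VIII, several of whose genes act in shoot, leaf and floral development, none of 7 was called, and none had an unadjusted p under 0.05 by limma, where 8.75% of all loci did. Their median log2 change was -0.06. The locus AT1G12890 was at 0.76 ± 0.42 (SE), PUCHI at -0.28 ± 0.31, DRN at 0.14 ± 0.25 and LEP at -0.13 ± 0.35, the last at 0.089 without hexenal replicate 1. All 4 were dim in the control, at 204 units or less.

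The corepressor machinery through which the EAR motif works showed no called gene either. Of 14 genes for TOPLESS proteins, SAP18, histone deacetylases and SIN3-like proteins, none had an unadjusted p under 0.05 by limma, and with 8.75% of all loci at that threshold a count of 0 is near the background. The median log2 change was -0.19. The SIN3-like genes SNL2, SNL4 and SNL5 were at 0.56 ± 0.26, -0.29 ± 0.24 and -0.27 ± 0.26 (SE), and the TOPLESS-related gene TPR1 at -0.29 ± 0.29. SNL2 had 3424 units in the control and 5588, 5475 and 4441 with hexenal, above the control on every array. The other 10 genes of this list lay between the values of SNL4 and SNL2.

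Of 11 genes of ethylene perception and signalling none was called, and 1, EBF2, had an unadjusted p under 0.05 by limma, a share near that of all loci. EBF2 encodes an F-box protein that targets the ethylene transcription factor EIN3 for degradation. It was at 14234 units in the control and 7731, 8652 and 6714 with hexenal, below the control on all 3 arrays. Its log2 change was -0.93 ± 0.26 (SE; 95% interval -1.59 to -0.27; adjusted p = 0.344). The ethylene receptor genes EIN4 and ETR2 were at 0.64 ± 0.33 and -0.24 ± 0.33, and EBF1, the second F-box gene, at -0.23 ± 0.24. The median of the 11 genes was -0.02.

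Among 3 kinases that act with or on stress ERFs, MPK3, a stress-activated MAP kinase, was at 11680 units in the control and 21674, 27795 and 32164 with hexenal. Every hexenal array lay well above the control. MPK3 was 2.30-fold higher with a 95% interval of 1.35- to 3.95-fold, and was not called (adjusted p = 0.289 by limma, and 0.0205 with trend and robust). MPK6 was at -0.022 ± 0.26, and at 0.075 without hexenal replicate 2. CIPK15, also called PKS3, a kinase that binds ERF7, was at -0.51 ± 0.28.

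Genes reported as targets of these factors, or known for GCC boxes in their promoters, gave no call among 10, and 2 had an unadjusted p under 0.05 by limma, both lower. Over all loci 8.75% passed that threshold in either direction, the share used for the lists above, and 2.91% passed it and were lower. BT4, a BTB and TAZ domain protein gene reported downstream of ERF11, was at 6882 units in the control and 3157, 3826 and 3287 with hexenal. The 3 hexenal arrays lay close together and below the control, with a log2 change of -1.03 ± 0.25 (SE; 95% interval -1.66 to -0.40; adjusted p = 0.257). Whether the changes of BT4 and ERF11 are linked, and in which direction, was not tested.

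The defensin genes PDF1.2a and PDF1.2b, outputs of jasmonate and ethylene signalling that ERF4 and ERF9 are known to repress, were at -0.71 ± 0.45 and -0.67 ± 0.26. For PDF1.2b the unadjusted p was 0.0482, and over 10 alternatives it ran from 0.0220 to 0.133, with 5 of them not under 0.05, among them those without replicate 2 (0.133) or replicate 3 (0.0722). PDF1.2b had 327 units in the control and 214, 187 and 186 with hexenal, and near-identical copies of this family may share probes. The basic chitinase gene PR3 was on the other side, at 0.91 ± 0.43, with 477 units in the control and 593, 1103 and 1080 with hexenal. The ACS genes of the list, ACS2 and ACS5, were dim, at 202 and 141 units in the control. Their log2 changes were -0.11 ± 0.39 and -0.38 ± 0.34 (SE), and neither was called. ACS2 and ACS5 were added after their values were seen. The list's median log2 change was -0.28. Target genes and factors were sampled together at 1 time, 30 min.

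**Figure D4:**
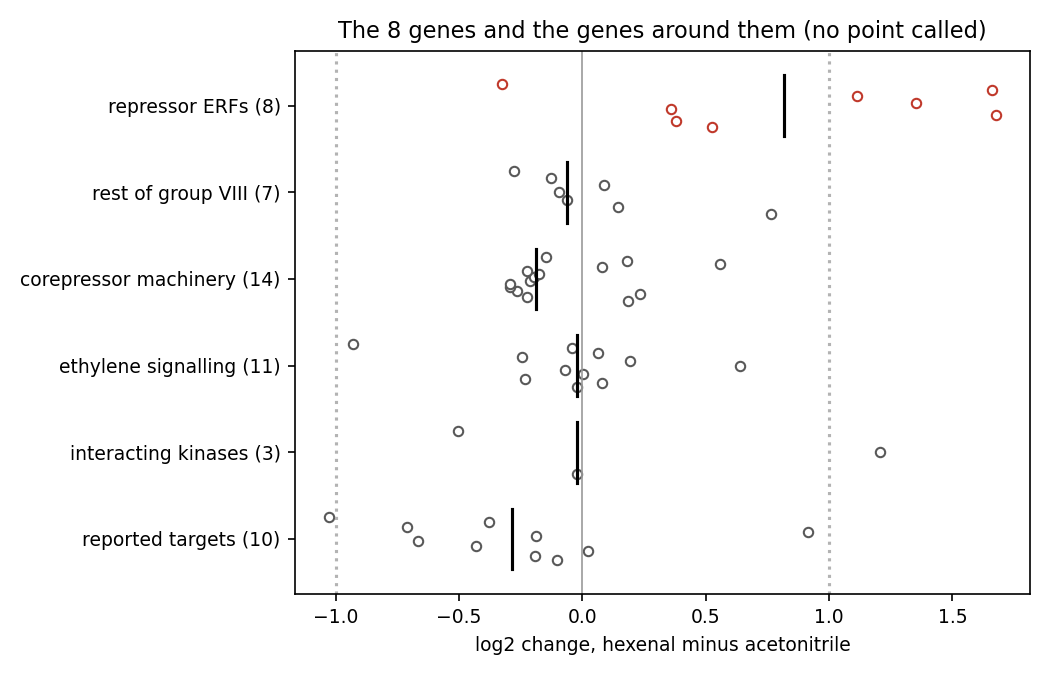
Log2 change of each gene (open points, none called) in the 8 repressor-type ERFs and in the 5 lists of related genes, with list sizes in brackets, medians as black bars and dotted lines at 2-fold. The median is 0.82 for the repressor-type ERFs and between -0.28 and -0.02 for the other lists.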

How the data were processed

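The values deposited by the authors are linear intensities, 1 for each locus on each array. Per the labels' protocols, oligo-dT primed cDNA was labelled with Cy3 and hybridized to one-colour NimbleGen arrays. The sources used here do not state the background correction, normalization, detection calls or genome build, so no detection limit was set and no coordinates are given. Lower quartiles differed by up to 0.20 on the log2 scale between arrays, and the log2 values were quantile normalized. The fit used R 4.3.3 and limma 3.58.1 (lmFit, eBayes without trend) on all 30361 loci, two-sided, with Benjamini-Hochberg adjustment over all loci and 2 residual degrees of freedom, all from the hexenal arrays. The fit assumes the same variance for the control. The code was tested on simulated data. The members and the lists were chosen with earlier results of these data known. Named genes are the 8 members, up to 4 genes of each list with the largest absolute log2 change, and the 3 loci nearest to the member with the largest change. Markers aside, values of other genes are given where the text says they were chosen after their values were seen. Names come from a RefSeq table of assembly TAIR10.1, which matched 29976 loci. Probe sequences were not used, and sharing of probes between related genes was not tested. No promoter or protein sequence was used here. Alternatives were other normalizations, filters on dim loci, eBayes with trend and robust, adding 16 before the log, no fold threshold, and leaving out each hexenal replicate. The filters on dim loci used the mean over all 4 arrays, hexenal arrays included. No column of another sample was present. The number of arrays limits the precision.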

Additional observations from a re-analysis of the deposited data

How the results depend on the processing

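The 8 repressor-type ERF genes kept their direction in all 83 values over the alternatives run. Trend and robust, the filters on dim loci and no fold threshold leave each log2 change as it was. Direction could therefore change only under the other alternatives. In 79 of the 83 values the call was unchanged. The other 4 became calls, those of ERF4, ERF8 and ERF11 with eBayes trend and robust and that of ERF11 without the dimmest 50% of loci. With no fold threshold the calls could not change, because the smallest adjusted p of the 8 genes in the main limma fit was 0.0946. Of the 8 genes, 3 were thus called with trend and robust and 1 without the dimmest 50%, a filter that leaves 4 of the 8 genes, while 0 were called under each of the other alternatives. Leaving out 1 hexenal replicate gave 0 called members at the lowest and 0 at the highest, and 4 genes stayed at an unadjusted p under 0.05 and at least 2-fold higher each time. Over all loci, trend and robust called 628 (573 higher, 55 lower) and the 50% filter 480 (448 higher, 32 lower), and the 25% filter called 18 lower. Leaving out 1 hexenal replicate gave 0 to 406 called loci, 0 to 367 higher and 0 to 39 lower, with 0 without replicate 2. Without replicate 2 the smallest adjusted p of a member was 0.455. The medians of the 8 genes under the 25% and 50% filters, 1.11 and 1.23, cover only the 7 and 4 genes left. LEP ran from -0.25 to 0.089 and MPK6 from -0.085 to 0.075 when 1 replicate was left out, and the cause was not tested. No paired analysis was possible because there was 1 control array for 3 hexenal arrays. No detection limit was available, so dim genes such as ERF9, ERF10 and ERF7 are limited by unknown background.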
